A study of Mus musculus with 4 samples.

Results

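The ligands, receptors and inhibitor of TGF-beta, myostatin, activin and BMP signaling were examined in cultured mouse primary myoblasts. The set held 10 genes, Tgfb1, Tgfb2, Tgfb3, Mstn, Gdf11, Inhba, Bmp4, Fst, Acvr2a and Acvr2b, chosen by gene symbol from the 24445 genes of the expression table, and each of the 10 had 1 row there. RNA sequencing compared WT myoblasts with Tet2 KO myoblasts, with 2 libraries in each group per the labels. Both groups were C57BL/6. The Tet2 KO mice lacked exon 3 of Tet2, an enzyme that oxidizes 5-methylcytosine, in every tissue rather than in muscle stem cells alone. In both groups, satellite cells, the stem cells of muscle, were sorted from hindlimb muscle as Integrin a7+ and CD34+ cells without CD45, CD11b, CD31 or Sca1, and were grown on collagen until they had become MyoD+ myoblasts. The labels gave neither age nor sex, and the methods give male mice of 8 to 10 weeks unless stated otherwise. The table gave 1 FPKM value, a count of fragments scaled to transcript length and sequencing depth, for each gene and group. No replicate error therefore stands beside any value, and no test was possible.

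The TGF-beta family consists of secreted dimeric ligands that bind paired type I and type II serine/threonine kinase receptors on the cell surface. TGF-beta, activin and myostatin receptors pass the signal to Smad2 and Smad3, and BMP receptors pass it to Smad1, Smad5 and Smad9. In skeletal muscle, myostatin limits muscle mass, TGF-beta is known as an inhibitor of myoblast differentiation and fusion, and follistatin, the product of Fst, binds activins, myostatin and Gdf11 outside the cell and blocks them.

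The labelled cell type was checked first. Of 8 myoblast markers, 7 averaged at least 1 FPKM over both groups, and 0 of these lay past 1.5-fold in either direction. All 7 were slightly lower in Tet2 KO, with log2 ratios from -0.27 to -0.02 and a median of -0.10. Myod1 had 336 FPKM in WT and 313 FPKM in Tet2 KO, Des, the most abundant, had 449 and 372 FPKM, and Pax7 had 11.1 and 10.98 FPKM. Tet2 itself had 6.64 FPKM in WT and 5.79 FPKM in Tet2 KO, a value over all exons that does not show the deleted exon. Marker genes of other states differed. Of 15 genes of differentiating muscle, 14 were at least 1.5-fold lower in Tet2 KO, and their summed level was 4107 FPKM in WT and 1820 FPKM in Tet2 KO. Mylpf, a myosin light chain and the most abundant, had 790 FPKM in WT and 321 FPKM in Tet2 KO. Their log2 ratios ran from -1.73 for Myh8 to -0.53 for Tnnt1, the 1 gene not past the fold. All 12 leukocyte markers were at least 1.5-fold higher in Tet2 KO, with a summed level of 494 FPKM against 126 FPKM in WT. Lyz2, the most abundant, had the largest log2 ratio, 2.07, and Cd68 the smallest, 0.94. None of the 12 was at 0 in either group, although the sort was set against CD45 and CD11b. Ptprc, which encodes CD45, had 1.36 FPKM in WT and 5.67 FPKM in Tet2 KO. Of 10 fibroblast markers 6 reached a mean FPKM of 1, and 1 of them, Mfap5, was past the fold, higher in Tet2 KO at a log2 ratio of 1.00. Col6a3 was lowest at -0.26. Ly6a, which encodes the Sca1 that the sort was set against, was the most abundant of them, with 278 FPKM in WT and 288 FPKM in Tet2 KO. Of 8 endothelial markers only Pecam1 reached that level, and it was not past the fold. The part of these differences in the results below was not tested. In bulk RNA, fewer cells of a type and less RNA per cell cannot be told apart.

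In WT myoblasts, the levels of the 10 genes spanned from 0.394 FPKM for Bmp4 to 27.0 FPKM for Fst. Tgfb3 followed Fst with 21.6 FPKM, and Acvr2a came next with 14.6 FPKM. Gdf11 and Inhba lay in the middle, and Tgfb2, Tgfb1, Acvr2b and Mstn lay between 1 and 3 FPKM. In Tet2 KO myoblasts Fst was again at the top, now with 48.0 FPKM, while Tgfb3 moved from rank 2 to rank 4, Inhba from rank 5 to rank 3 and Tgfb2 from rank 6 to rank 8. Mstn and Bmp4 held the bottom places in both groups. Without a value per library, it cannot be said which neighbours in this order differ beyond their spread.

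**Figure D1:**
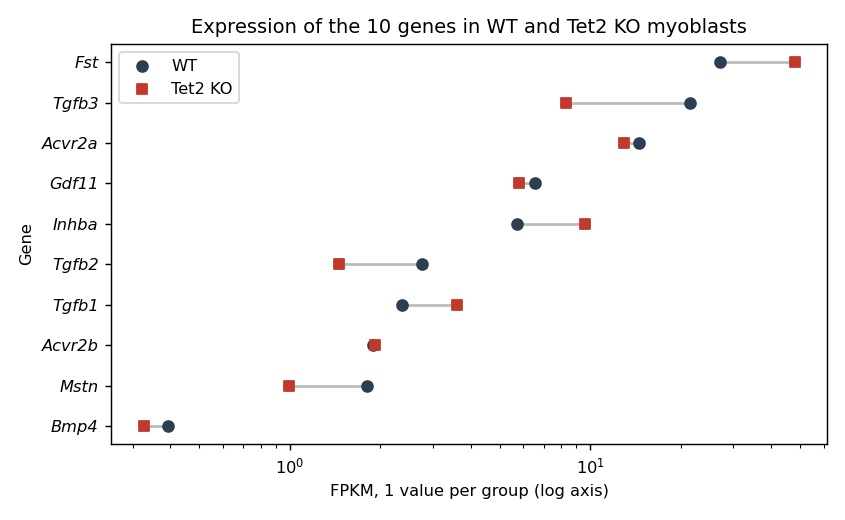
FPKM of each of the 10 genes on a log axis, with 1 value for WT (circles) and 1 for Tet2 KO (squares), joined by a line and ordered by the WT level. Tgfb3 shows the longest line, from 21.6 FPKM in WT to 8.31 FPKM in Tet2 KO, while the points of Acvr2b nearly coincide.

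For the comparison, the ratio was taken as log2((Tet2 KO FPKM + 1) / (WT FPKM + 1)), in which the added 1 damps the ratio of low genes, and a gene was counted when it differed by at least 1.5-fold on that scale. Of the 10 genes, 9 averaged at least 1 FPKM over both groups. Bmp4, at 0.360, did not. Fst and Inhba were past the fold and higher in Tet2 KO, and Tgfb3 and Tgfb2 were past the fold and lower. That is 22.2% of the 9 genes in each direction. Among all 11692 genes that averaged at least 1 FPKM, 3.72% were past the fold and higher and 2.89% were past it and lower. The shares depended on the level. Among genes averaging 1 to 10 FPKM, where Inhba and Tgfb2 lie, 6.66% were higher and 4.08% were lower. The shares were 1.61% higher and 2.07% lower among genes averaging 10 to 100 FPKM, where Fst and Tgfb3 lie. At 2-fold, Tgfb3 was the 1 member left, lower in Tet2 KO, where 2.08% of all genes were higher and 1.21% were lower. With a difference of 25% as the limit, Tgfb1 joined the higher genes and Mstn the lower ones, which made 3 members in each direction, where 7.04% of all genes were higher and 7.03% were lower. The median log2 ratio of the 9 genes was -0.15, against -0.0044 over all genes at that level. With 9 genes and no replicates these shares describe the table and are not a test.

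Tgfb3 was the member with the largest difference. It encodes TGF-beta 3, 1 of the 3 TGF-beta isoforms, and lies on chromosome 12 from 87397693 to 87419991 of mm9. It had 21.6 FPKM in WT and 8.31 FPKM in Tet2 KO, 2.60-fold lower, with a log2 ratio of -1.28. Tgfb3 was the most expressed TGF-beta isoform in both groups.

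Tgfb2, on chromosome 1 from 188446671 to 188529868, encodes TGF-beta 2. It had 2.75 FPKM in WT and 1.46 FPKM in Tet2 KO, 1.88-fold lower, and its log2 ratio of -0.61 lay just past the fold. Mstn, on the same chromosome from 53118484 to 53124923, encodes myostatin. It had 1.81 FPKM in WT and 0.996 FPKM in Tet2 KO, which is 1.82-fold lower as a plain ratio. Its log2 ratio with the added 1 was -0.50, short of the fold, because both values were near 1 FPKM. With no pseudocount the log2 ratio of Mstn was -0.86 and past the fold. The 3 members that were lower here moved with the genes of differentiating muscle given above, and the part of that difference was not tested.

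Fst, on chromosome 13 from 115242470 to 115249159, was the member with the largest difference toward Tet2 KO. It had 27.0 FPKM in WT and 48.0 FPKM in Tet2 KO, 1.78-fold higher, with a log2 ratio of 0.81. In Tet2 KO its level exceeded that of 91.9% of all genes of the table. Inhba, which encodes the beta A subunit of activin A and lies on the same chromosome from 16103684 to 16123442, had 5.69 FPKM in WT and 9.60 FPKM in Tet2 KO. It was 1.69-fold higher, with a log2 ratio of 0.66. Tgfb1, on chromosome 7 from 26472021 to 26490096, encodes TGF-beta 1. It had 2.37 FPKM in WT and 3.59 FPKM in Tet2 KO, 1.52-fold as a plain ratio, and its log2 ratio of 0.45 with the added 1 stayed short of the fold. With no pseudocount it was 0.60 and past the fold. Tgfb1 and Inhba are also expressed by leukocytes, whose markers were higher in Tet2 KO, and the part of that difference was not tested.

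Acvr2a and Acvr2b encode the type II receptors of activins and myostatin. Acvr2a, on chromosome 2 from 48669629 to 48804787, had 14.6 FPKM in WT and 13.01 FPKM in Tet2 KO, a log2 ratio of -0.15. Acvr2b, on chromosome 9 from 119311296 to 119351266, had 1.90 FPKM in WT and 1.92 FPKM in Tet2 KO, with a log2 ratio of 0.01. Gdf11, on chromosome 10 from 128317580 to 128328774, encodes the ligand closest in sequence to myostatin. It had 6.55 FPKM in WT and 5.81 FPKM in Tet2 KO, a log2 ratio of -0.15. Bmp4, on chromosome 14 from 46999199 to 47010344, encodes a bone morphogenetic protein. It had 0.394 FPKM in WT and 0.327 FPKM in Tet2 KO and was the least expressed of the 10 genes. None of these 4 genes was past the fold. Acvr2a overlaps the annotated gene Orc4, and Bmp4 overlaps Gm15217 and Gm15222. Tgfb2, which was past the fold, overlaps SNORA70. The values of these members may therefore hold fragments of the genes they overlap.

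The table gave no read counts, but its low values allowed an estimate of the depth. In genes with 1 annotated transcript, the FPKM was multiplied by the transcript length in kilobases, less an offset. The products came in steps of a single size, 0.0179 FPKM times kilobases in Tet2 KO and 0.0175 in WT. Of the low values, 83.4% and 82.0% lay within 0.1 step of a whole number of steps. The step was chosen to fit these same values, so the shares are not an independent check. Whether each value came from a single library or from merged reads is not given in the sources used here. Read as 1 fragment per step, the steps give about 55900000 fragments behind the Tet2 KO values and 57100000 behind the WT values. On that reading Mstn rested on about 139 fragments in Tet2 KO and 256 in WT, and Fst on about 5763 and 3280. Exact binomial 95% intervals of the plain ratio of Tet2 KO to WT then ran from 0.363 to 0.409 for Tgfb3, from 0.467 to 0.603 for Tgfb2 and from 0.444 to 0.678 for Mstn. They ran from 1.71 to 1.86 for Fst, from 1.52 to 1.88 for Inhba and from 1.29 to 1.78 for Tgfb1, so that equal levels lay outside the interval for each of these 6 genes. The interval of Acvr2b ran from 0.809 to 1.26, and that of Bmp4, with about 34 and 42 fragments, from 0.512 to 1.33, so no difference was detectable at this depth for these 2 genes. The intervals of Acvr2a, from 0.855 to 0.931, and of Gdf11, from 0.821 to 0.957, lay below 1. These intervals cover counting error only. They do not cover the spread between mice or cultures, and they use the longest annotated transcript of each gene.

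**Figure D2:**
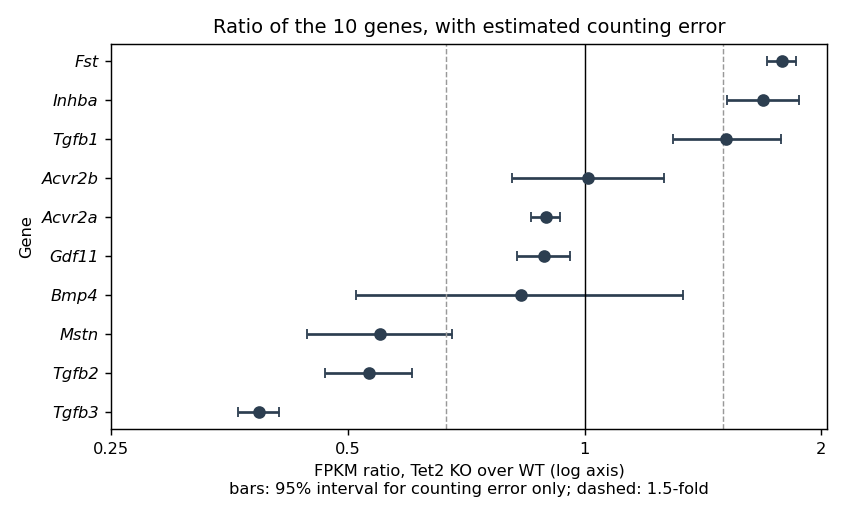
Plain FPKM ratio of Tet2 KO to WT for each gene on a log axis, with bars for the estimated 95% interval of counting error and dashed lines at 1.5-fold in either direction. Tgfb3 lies farthest to the left at 0.385 and Fst farthest to the right at 1.78, while the bars of Acvr2b and Bmp4 cross 1.

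**Figure D3:**
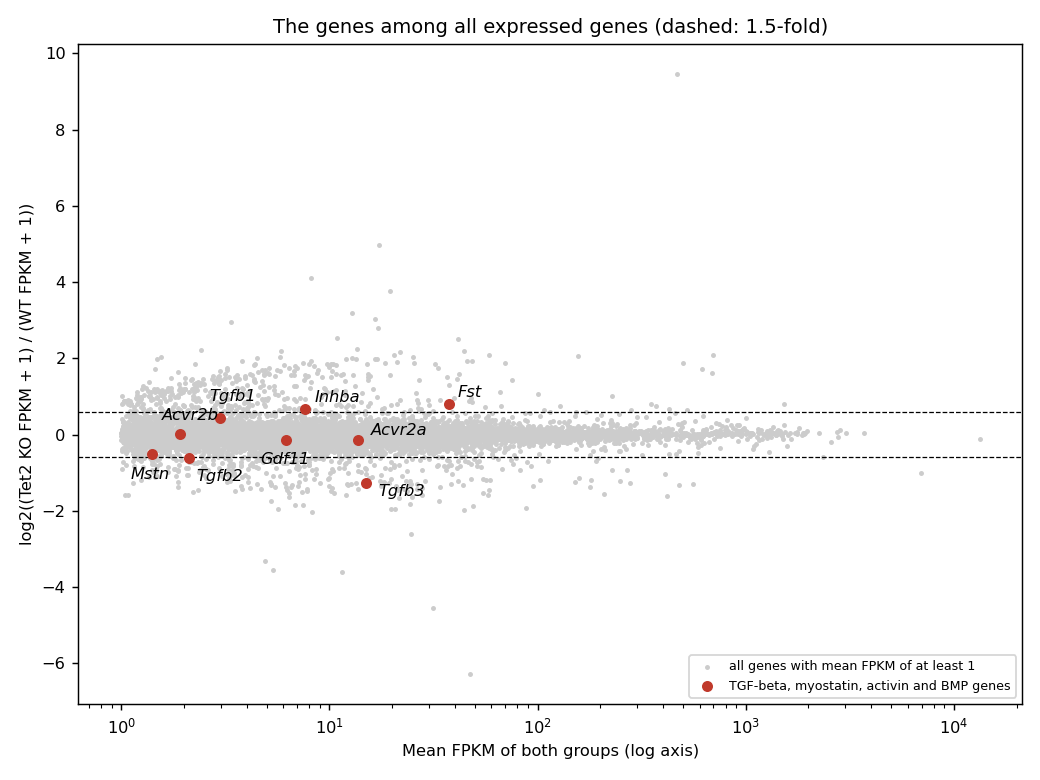
log2 ratio with 1 FPKM added to each value against the mean FPKM of both groups (log axis), for the 11692 genes that averaged at least 1 FPKM (grey) and the 9 member genes among them (red). Fst, Inhba and Tgfb3 lie outside the dashed lines at 1.5-fold, and Tgfb2 lies at the edge of the lower line.

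The makeup of the ligand pairs and families was then compared, which is possible because FPKM is a level per length. The 3 TGF-beta isoforms summed to 26.7 FPKM in WT and 13.4 FPKM in Tet2 KO. Tgfb3 made up 80.8% of the sum in WT and 62.2% in Tet2 KO. Tgfb1 made up 8.88% in WT and 26.9% in Tet2 KO, and the share of Tgfb2 was 10.3% and 10.9%. The sum of the isoforms thus differed 1.998-fold while Tgfb1 and Tgfb3 differed in opposite directions. Activins are dimers of beta subunits, of which Inhba and Inhbb were both expressed. Inhba held 39.2% of their sum in WT and 62.5% in Tet2 KO, while the sum itself was 14.5 FPKM in WT and 15.4 FPKM in Tet2 KO. Acvr2a held 88.5% of the sum of both type II receptors in WT and 87.1% in Tet2 KO. Gdf11 exceeded Mstn in both groups, with 78.3% of their sum in WT and 85.4% in Tet2 KO.

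The transcript of the inhibitor follistatin was set against those of its ligands. The FPKM of Fst was 14.9 times that of Mstn in WT and 48.2 times in Tet2 KO, a 3.24-fold difference of the ratio. Against Gdf11 it was 4.12 times in WT and 8.27 times in Tet2 KO. Against Inhba, which was higher together with Fst, it was 4.74 times in WT and 5.004 times in Tet2 KO. These are ratios of transcripts and not of proteins, and no FPKM was added to either value. The ratio to Mstn rests on a low denominator, 1.81 FPKM in WT and 0.996 FPKM in Tet2 KO.

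The promoters were examined next because Tet2 acts on cytosines of CG dinucleotides and because MyoD binds the E box motif CANNTG. Promoter sequences from RefSeq (GRCm38.p6), 250 bases before to 50 bases after the start of the gene, were matched for 8 of the 10 genes, all but Tgfb3 and Fst, and each was found unchanged at a single place of the same chromosome in mm9. A median promoter of the table, which held 32851 promoters, had 7 CG dinucleotides. Mstn had 6, Inhba 7 and Tgfb2 10. Bmp4 had 12, Acvr2b 27, Tgfb1 30, Gdf11 36 and Acvr2a 54. The promoter of Acvr2a held more CG dinucleotides than 99.7% of all promoters. Mstn had 4 matches to CANNTG, at positions -229, -174, -52 and -19 from the start, and 6.49% of all promoters held as many. Bmp4 had 3 matches, Tgfb2 and Gdf11 had 1 each, and Inhba, Tgfb1, Acvr2a and Acvr2b had 0. The motif reads the same on both strands, and 72.3% of all promoters held at least 1 match. The single match of Tgfb2 was CACGTG, which itself contains a CG. No methylation value of these promoters was analysed here, and a match is not a bound site.

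The promoters of Mstn and Tgfb2, which were lower in Tet2 KO, of Inhba, which was higher, and of Acvr2a, which was not past the fold and has the densest CG content of the 8, are shown from 5′ to 3′ with CG dinucleotides in capitals. In mm9 they lie at chr1:53118234-53118533 on the plus strand (Mstn), chr1:188529819-188530118 on the minus strand (Tgfb2), chr13:16103434-16103733 on the plus strand (Inhba) and chr2:48669379-48669678 on the plus strand (Acvr2a).
Mstn: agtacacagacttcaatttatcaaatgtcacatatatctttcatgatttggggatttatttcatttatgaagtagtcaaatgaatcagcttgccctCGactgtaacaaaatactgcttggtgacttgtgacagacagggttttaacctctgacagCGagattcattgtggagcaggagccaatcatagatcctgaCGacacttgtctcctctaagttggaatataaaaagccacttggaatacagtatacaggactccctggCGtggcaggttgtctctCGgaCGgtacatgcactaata
Tgfb2: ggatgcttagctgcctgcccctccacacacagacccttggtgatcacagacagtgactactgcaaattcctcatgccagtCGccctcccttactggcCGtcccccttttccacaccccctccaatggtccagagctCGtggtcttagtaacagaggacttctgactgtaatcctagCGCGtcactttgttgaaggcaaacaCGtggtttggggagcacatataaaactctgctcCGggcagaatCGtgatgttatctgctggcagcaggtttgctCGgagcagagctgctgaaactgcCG
Inhba: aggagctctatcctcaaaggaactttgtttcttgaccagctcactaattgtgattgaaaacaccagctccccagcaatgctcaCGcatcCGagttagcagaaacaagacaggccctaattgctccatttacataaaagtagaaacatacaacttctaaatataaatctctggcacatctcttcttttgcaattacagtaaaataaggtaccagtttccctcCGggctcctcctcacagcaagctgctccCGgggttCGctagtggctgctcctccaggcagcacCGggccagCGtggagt
Acvr2a: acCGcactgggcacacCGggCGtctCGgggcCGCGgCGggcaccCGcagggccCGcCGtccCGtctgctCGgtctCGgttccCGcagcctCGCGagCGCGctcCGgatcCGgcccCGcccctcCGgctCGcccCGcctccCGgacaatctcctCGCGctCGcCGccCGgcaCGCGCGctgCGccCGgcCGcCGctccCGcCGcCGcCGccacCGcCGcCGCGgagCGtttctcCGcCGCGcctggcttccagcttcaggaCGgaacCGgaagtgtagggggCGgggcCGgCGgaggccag

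The rest of the pathway was described by role, with lists that together held 112 genes, of which 77 averaged at least 1 FPKM. Of these 77 genes, 10 (13%) were past the fold and higher in Tet2 KO and 4 (5.19%) were past it and lower, against 3.72% and 2.89% of all genes at that level. Their median log2 ratio was 0.01. Among genes averaging 1 to 10 FPKM, 6.66% were higher and 4.08% were lower. The lists were chosen with earlier results of these data known, so their shares describe the table and are not a test. They hold several genes that other cell types express as well.

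Among other ligands, 4 of 26 genes reached a mean FPKM of 1. Inha, which encodes the alpha subunit of inhibin, was past the fold, with 5.74 FPKM in WT and 2.84 FPKM in Tet2 KO. Gdf15, a stress-induced ligand and the most abundant of them, had 7.75 and 9.06 FPKM and was not past the fold. Gdf6 and Inhbb, at log2 ratios of -0.57 and -0.54, lay just short of it.

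Of 14 expressed genes of ligand processing and activation, 2 (14.3%) were past the fold and higher and 1 (7.14%) was past it and lower. The shares of all genes at that level were 3.72% and 2.89%. Nrros and Lrrc32 encode surface proteins that hold latent TGF-beta on the cell. Nrros, known from macrophages and microglia, had 2.197 FPKM in WT and 5.92 FPKM in Tet2 KO, and Lrrc32 had 2.13 and 4.40 FPKM. Itgb8, an integrin subunit that activates latent TGF-beta, had 7.93 FPKM in WT and 4.30 FPKM in Tet2 KO. Thbs1, which encodes the TGF-beta activator thrombospondin 1, was the most abundant, with 215 and 234 FPKM.

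Of 13 other expressed receptors and co-receptors, 1 (7.69%) was past the fold and higher and 1 (7.69%) was past it and lower. The shares of all genes at that level were 3.72% and 2.89%. The 2 counts became 3 and 2 with a pseudocount of 0.1 or none. Bmpr1a, a type I BMP receptor and the most abundant, had 39.5 FPKM in WT and 35.4 FPKM in Tet2 KO. Bmpr1b, its relative, was past the fold and higher, with 1.26 FPKM in WT and 2.56 FPKM in Tet2 KO. Hfe2, which encodes the BMP co-receptor hemojuvelin and is known to be expressed in skeletal muscle, was past the fold in the other direction, with 11.5 FPKM in WT and 5.67 FPKM in Tet2 KO.

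Of 11 other expressed extracellular inhibitors, 3 (27.3%) were past the fold and higher in Tet2 KO, and 0 were past it and lower. Of all genes at that level, 3.72% were higher and 2.89% were lower. Among genes averaging 1 to 10 FPKM, where these 3 lie, 6.66% were higher. At 2-fold, 1 of the 3 was left, where 2.08% of all genes were higher. Grem1 encodes the BMP antagonist gremlin 1 and had 3.35 FPKM in WT and 8.01 FPKM in Tet2 KO. Dcn encodes decorin, a matrix proteoglycan that binds TGF-beta and myostatin, and had 3.15 and 7.04 FPKM. Fstl1, the most abundant of them, had 51.2 FPKM in WT and 56.2 FPKM in Tet2 KO. Dcn is also a fibroblast gene. The 6 expressed fibroblast markers ranged from -0.26 to 1.00 on the log2 scale, and their part in the level of Dcn was not tested.

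Smad transducers and membrane and intracellular inhibitors were compared next. All 6 expressed Smad transducer genes and all 10 membrane and intracellular inhibitors were within 1.5-fold. Only 3.72% of all genes at that level were past the fold and higher and 2.89% were lower. Lists this short therefore cannot be told apart from that background. Smad4, the common partner of the other Smads, had 41.5 FPKM in WT and 40.2 FPKM in Tet2 KO, and Tgif1, a corepressor of Smad2, had 70.9 and 78.4 FPKM.

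Target genes of both branches were compared last. Of 15 TGF-beta target genes, 4 were past the fold and higher in Tet2 KO and 1 was past it and lower, that is 26.7% and 6.67%, against 3.72% and 2.89% of all genes at that level. Their median log2 ratio was 0.21. This list too was chosen with earlier results of these data known, so its shares are not a test. Tgfbi, a matrix protein induced by TGF-beta, had 7.08 FPKM in WT and 23.4 FPKM in Tet2 KO, and Col1a2, a chain of type I collagen, had 8.71 and 15.8 FPKM. Ctgf, a matrix-associated growth factor, had 24.4 and 38.3 FPKM. Acta2, which encodes smooth muscle actin and is also expressed in early differentiating myoblasts, had 236 FPKM in WT and 146 FPKM in Tet2 KO. None of the 8 expressed BMP target genes was past the fold, in a list too short to be told apart from the background. Id3, an inhibitor of myogenic factors and the most abundant, had 565 FPKM in WT and 525 FPKM in Tet2 KO. Smad6, Smad7, Pmepa1 and Skil stood both among the inhibitors and among the targets.

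**Figure D4:**
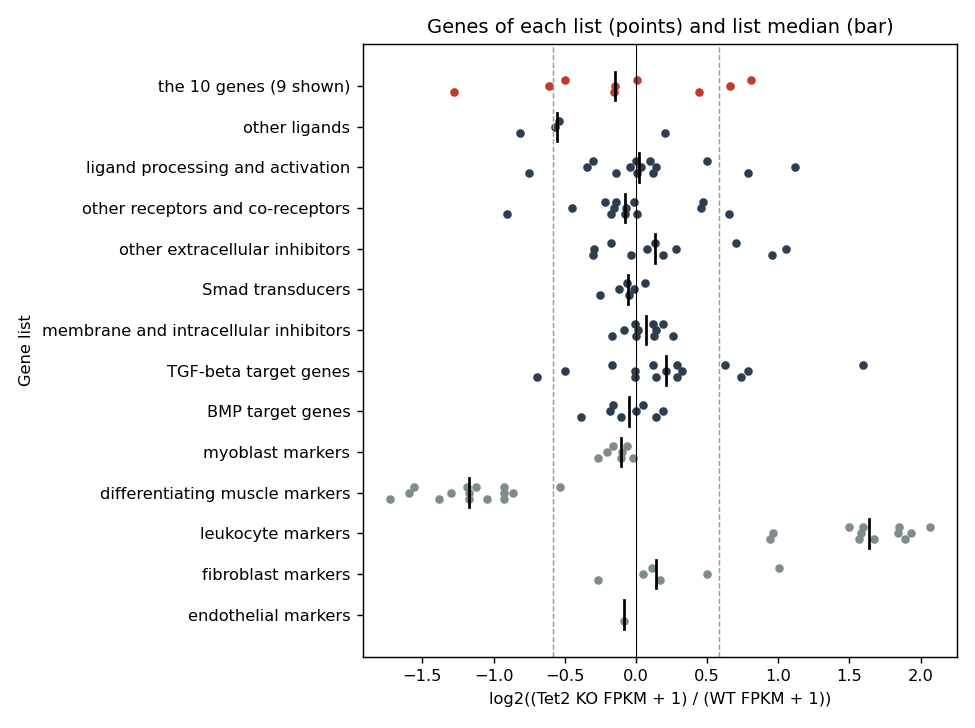
log2 ratio with 1 FPKM added to each value for every gene that averaged at least 1 FPKM, by list, with a black bar at the median of the list and dashed lines at 1.5-fold. The 9 member genes spread from -1.28 to 0.81, Smad transducers and intracellular inhibitors lie near 0, and the differentiating muscle and leukocyte markers lie on opposite sides.

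To see whether the 4 members past the fold shared their difference with the genome around them, the nearest 3 genes on each side that averaged at least 1 FPKM were examined. Of these 24 neighbours, 1 was past the fold and higher and 1 was past it and lower. Among all genes at that level, 3.72% were higher and 2.89% were lower, and with 24 neighbours the counts cannot be told apart from these shares. Not all neighbours were close by. They lay up to 2325 kb from a member, and the nearest one of Inhba was 425 kb away. With neighbours averaging at least 5 FPKM instead, 0 of 24 were higher and 1 was lower. Both genes past the fold at 1 FPKM were neighbours of Fst. Itga2, an integrin subunit, lay 428 kb from Fst and had 0.675 FPKM in WT and 1.63 FPKM in Tet2 KO. Hspb3, a small heat shock protein of muscle, lay 792 kb away on the other side and had 10.6 FPKM in WT and 3.57 FPKM in Tet2 KO. The neighbours of Tgfb3 ranged from -0.29 to 0.10, those of Tgfb2 from -0.18 to 0.06 and those of Inhba from -0.06 to 0.17 on the log2 scale with 1 FPKM added.

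**Figure D5:**
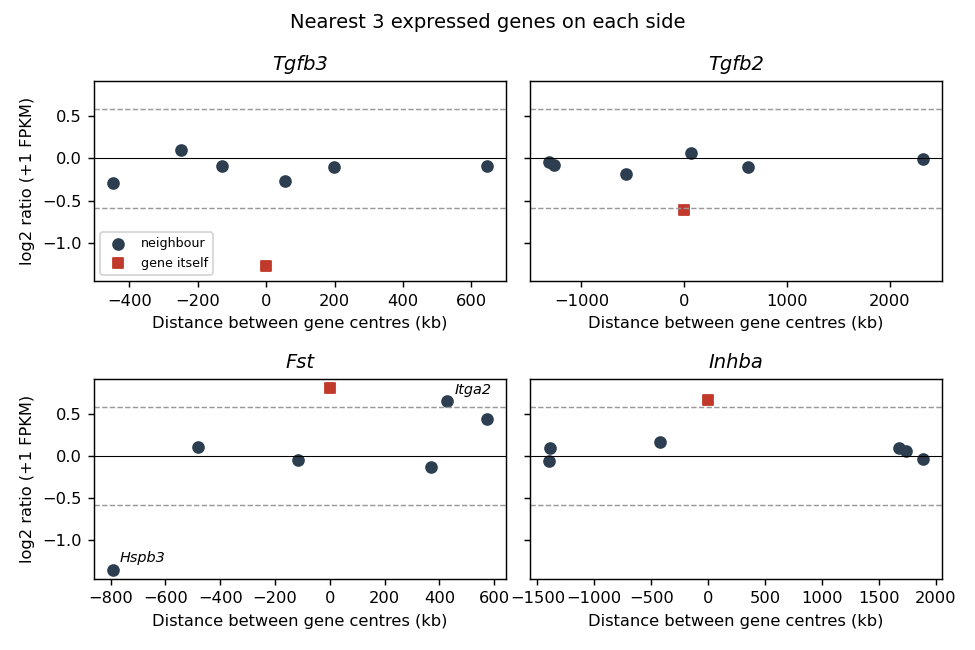
log2 ratio with 1 FPKM added to each value against the distance between gene centres in kb, for the 4 members past 1.5-fold (squares at 0) and their 3 nearest expressed neighbours on each side (circles). Each member stands apart from its neighbours, except that Itga2 lies near the level of Fst. The members were shown because they were past the fold, while the neighbours were chosen by position, so this gap follows from the choice.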

How the data were processed

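RNA of WT and Tet2 KO primary myoblasts had been made into TruSeq libraries. Per the study's methods and the submitters' processing notes, the authors filtered the reads for adapters and quality, aligned pairs to mm9 with TopHat2 2.0.13 and estimated FPKM with Cuffdiff 2.2.1; the gene annotation and the use of strand were not given in the sources used here. The deposited table held 1 FPKM value per gene and group. Per the study's methods, Cuffdiff compared a KO with a WT sample pair by pair. How the 2 libraries of a group entered the single value is not given in the sources used here. The table also held the authors' log2 ratio, test statistic, p-value and q-value for each gene, which belong to the study's own comparison and were not used. Groups were those of the genotype labels.

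Here the ratio log2((Tet2 KO + 1) / (WT + 1)) was computed for all 24445 genes, and genes averaging at least 1 FPKM over both groups were counted at 1.5-fold. Genes were named by a rule: the 10 members, Tet2, the most abundant gene of each list and up to 2 genes past the fold in each direction per pathway list, and the extremes of marker lists. Ptprc, Myod1, Ctgf, Gdf6, Inhbb, Itga2, Hspb3 and the 4 genes held in more than 1 list were named after their values were seen. Some genes of the lists are counted but not reported here by name. The members and lists were chosen with earlier results of these data known. Starts in the table count from 0, and 1 was added. Exons, lengths and overlaps came from GENCODE vM1, which is on the same build. In a BLAST 2.17.0 search of the genome for stretches of at least 100 bases at 95% identity, 0% of the transcript of any member was found elsewhere. The depth estimate was added after the data were seen. It took the step and a length offset, 190 bases in Tet2 KO and 210 bases in WT, that put most low values of genes with transcripts over 1500 bases at whole multiples. Intervals are exact binomial (Clopper-Pearson). The ratio, the call rule and the step search were tested on simulated data. The software was Python 3.11.15 with scipy 1.17.1, pandas 2.3.3, numpy 2.4.6 and matplotlib 3.10.9.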

Additional observations from a re-analysis of the deposited data

How the results depend on the processing

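No paired analysis was possible because the table gives 1 value per gene and group, and for that reason no library could be left out either. The log2 ratios of the 10 members and of Tet2 kept their direction and their side of 1.5-fold under pseudocounts of 0.1 and 0, TPM and median centring, except that Mstn passed the fold at -0.80 with a pseudocount of 0.1, at -0.86 with none and at -0.60 on the TPM scale, and Tgfb1 passed it at 0.60 with no pseudocount; a smaller pseudocount, or the larger numbers of the TPM scale, damp low genes less. The 2 members higher and 2 lower in Tet2 KO became 0 and 1 at 2-fold, where Tgfb3 remained, and 1 was lower among genes averaging at least 5 FPKM, which leaves out Tgfb2. Of the pathway lists, the 10 genes higher became 6 among genes averaging at least 5 FPKM and 3 at 2-fold. The 4 genes lower became 7 with a pseudocount of 0.1, 8 with none, 0 at 2-fold and 10 where a difference of 25% sufficed. The counts of leukocyte genes higher and differentiating muscle genes lower stayed within 1.5 times under each alternative run. Median centring moved all genes by 0.0044. The deposited values carry no spread between libraries, which limits every comparison.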
